A study of Mus musculus with 7 samples.

Results

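MicroRNA genes known from skin and from the skeleton were compared between the mouse digit blastema and the intact digit. The blastema is the mass of cells that forms on an amputated digit tip and rebuilds it. The set names 10 genes, of which 9 encode microRNA hairpins (Mir21a, Mir22, Mir31, Mir140, Mir199a-1, Mir199a-2, Mir203, Mir205 and Mir214) and 1, Dnm3os, is a long RNA that hosts Mir199a-2 and Mir214. Members were taken by symbol from the probe sets that list exactly 1 gene, with the brightest probe set used where a gene has several. By this rule 5 of the 10 were measured on their own (Mir31, Mir140, Mir199a-1, Mir203 and Mir205), out of 480 microRNA genes and 22180 genes in all. The other 5 lie on 3 probe sets that each list several genes, and those probe sets are described separately as joint signals.

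The tissue came from C57Bl/6 mice. Blastemas were taken 2 weeks after amputation (n = 3) and set against uninjured digits (n = 4), which had no amputation, and the labels call the samples of both groups biological replicates. Whole-transcript cDNA from 400 ng of total RNA per sample was hybridised to 1-colour arrays, and levels are given on the log2 scale of RMA, a method that corrects background, equalises arrays and summarises probes. The sources used here give neither the age of the animals nor the number of digits per sample. The study's title concerns Schwann cell precursors that act on neighbouring cells, and for this set the comparison asks how microRNA genes of the epidermis, cartilage and mesenchyme differ between the regenerating and the intact digit.

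A microRNA gene is transcribed as a long primary RNA, often together with a host gene. Drosha cuts out a hairpin, Xpo5 exports it, Dicer1 trims it to a short duplex, and an Argonaute protein keeps 1 strand, which pairs with messenger RNAs mainly through its seed, bases 2 to 8. In skin, miR-203 is a product of differentiating epidermis that represses the stem cell factor p63, miR-205 is made in basal epidermis and hair follicles, and miR-31 rises in wounded epidermis. In the skeleton, miR-140 is made in chondrocytes under Sox9, and miR-199a and miR-214 come from mesenchymal cells through Dnm3os. A whole-transcript array does not measure the mature strand by itself. A signal on such a probe set can come from the primary RNA, the hairpin or an overlapping host RNA, and standard silica columns of the kind used retain little RNA as short as a mature microRNA.

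The hairpins of the 5 separately measured genes are given 5′ to 3′ from RefSeq (GRCm38.p6), since they are the parts of the genes that define these probe sets by name. Capitals mark the mature strands that the same table lists. The other strand of Mir140, miR-140-5p, is a known product too and is named only.
Mir31 (chr4:88910557-88910662, minus strand): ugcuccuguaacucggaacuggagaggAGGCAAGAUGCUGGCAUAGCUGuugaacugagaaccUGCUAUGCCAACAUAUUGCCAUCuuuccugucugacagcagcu
Mir140 (chr8:107551244-107551313, plus strand): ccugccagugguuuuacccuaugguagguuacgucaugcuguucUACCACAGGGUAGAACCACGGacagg
Mir199a-1 (chr9:21496495-21496564, minus strand): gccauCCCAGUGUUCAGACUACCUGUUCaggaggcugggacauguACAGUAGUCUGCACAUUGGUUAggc
Mir203 (chr12:112130880-112130955, plus strand): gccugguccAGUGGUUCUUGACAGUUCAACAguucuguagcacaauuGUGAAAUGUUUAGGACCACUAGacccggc
Mir205 (chr1:193507463-193507530, minus strand): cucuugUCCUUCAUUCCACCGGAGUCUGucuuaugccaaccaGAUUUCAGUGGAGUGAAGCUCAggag
In RefSeq, Mir140 lies inside Wwp2, Mir199a-1 inside the span of Dnm2, Mir205 inside Mir205hg and Mir31 inside the long RNA gene Gm49890, and Mir203 overlaps a second hairpin gene, Gm51289.

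The seeds group the products. Mature strands are given below with the seed in capitals, so that genes with shared target preference can be recognised.
miR-31-5p: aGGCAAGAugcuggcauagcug
miR-140-3p: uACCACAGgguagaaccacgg
miR-203-3p: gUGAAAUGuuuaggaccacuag
miR-205-5p: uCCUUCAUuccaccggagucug
miR-199a-5p: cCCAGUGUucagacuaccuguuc
miR-199a-3p: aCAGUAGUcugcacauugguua
miR-214-3p: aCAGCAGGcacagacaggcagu
miR-22-3p: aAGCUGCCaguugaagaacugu
miR-21a-5p: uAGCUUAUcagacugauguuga
Mir199a-1 and Mir199a-2 give the same pair of mature strands from different chromosomes, and the seed of miR-199a-3p is shared with miR-199b-3p. No seed is common to 2 of the lines above. The seeds of miR-140-3p, miR-214-3p and miR-21a-5p each occur in 1 other mouse entry of the table, miR-497b, miR-761 and miR-21c. Strands that the table lacks, as it does miR-140-5p, could not be compared, so a seed without a match here need not be unique.

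Marker genes of the whole digit place the results. Mean log2 levels of 15 measured epidermal markers ran from 10.16 to 10.38 on the blastema arrays and from 10.65 to 10.89 on the uninjured arrays, with 7 lower and 0 higher by the test used below. Those of 10 chondrocyte markers ran from 6.80 to 7.08 on blastema arrays and from 5.67 to 6.16 on uninjured arrays (5 higher, 0 lower). Those of 10 fibroblast markers ran from 9.41 to 10.02 in blastema and from 7.22 to 8.17 in uninjured digit (8 higher, 0 lower), and all 8 measured osteoblast markers were higher. Those of 10 osteoclast markers ran from 7.22 to 7.90 in blastema and from 5.82 to 5.95 in uninjured digit (9 higher, 0 lower), while 0 of 10 muscle markers and 0 of 7 blood markers passed limma (0 and 2 at an unadjusted p under 0.05). Whether more cells of a type or more RNA per cell lies behind a level cannot be told apart in these bulk samples. The part of these shifts in the microRNA results was not tested.

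Of the 5 separately measured genes, Mir31 rose in the blastema, Mir140 fell at a low signal level, and Mir199a-1, Mir203 and Mir205 did not pass the test. The test was limma with Benjamini-Hochberg adjustment over all 22180 genes and a threshold of 0.05. It called 9.64% of all genes, 4.98% higher and 4.66% lower, and 2 calls among 5 genes are too few to set apart from that share. The median log2 fold change, blastema minus uninjured, was 0.28 for the 5 genes and -0.0054 for all genes. The groups did not overlap for 2 of the 5, 1 in each direction, and for 21% of all genes, 10.4% with blastema higher and 10.6% with blastema lower.

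Mir31 had log2 levels of 8.05, 8.12 and 8.42 in blastemas 1 to 3, against 7.88, 7.64, 7.62 and 7.43 in uninjured digits 1 to 4. Each blastema lay above each uninjured digit, the closest pair being blastema 1 and uninjured digit 1. The means were 8.20 ± 0.20 (SD, n = 3) in blastema and 7.64 ± 0.18 (SD, n = 4) in uninjured digit. The change on the log2 scale was 0.55 ± 0.13 (SE), 1.47-fold higher (95% interval 0.25 to 0.86 on the log2 scale, limma adjusted p = 0.0398). Among all 480 microRNA genes it was the change of rank 22 from the top. It held in 2 of the 7 omissions of 1 array, without blastema 1 (adjusted p = 0.0486) or uninjured digit 1 (0.0287). It did not pass without blastema 2 or 3 (0.102 and 0.13), without uninjured digit 2, 3 or 4 (0.101, 0.105 and 0.0902), or when adjusted over all 41345 probe sets of the array (0.0604). It also did not pass when each array was rescaled to 5 reference genes (log2 fold change 0.43, 0.192), where the median over all genes was -0.129.

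Mir31 stood at a level above that of most genes, 84.7% of which were lower. Among the genes ranked, those whose centred log2 profile over the 7 arrays lay nearest to that of Mir31 were Pigs, Bnc1 and Klrd1. Their root mean square differences were 0.0392, 0.0615 and 0.0652, and Bnc1 encodes a transcription factor of basal epidermis. All were picked for their likeness to Mir31 on these same arrays. Their log2 fold changes of 0.57, 0.56 and 0.48 follow from this choice and are no separate result. Of the 15 epidermal markers, 7 fell and 0 rose, as given above.

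Mir140 had log2 levels of 4.32, 4.30 and 4.43 in blastemas 1 to 3, against 4.67, 5.13, 4.99 and 5.20 in uninjured digits 1 to 4. The 3 blastemas lay close together and below all 4 uninjured digits, of which digit 1 was the lowest. The means were 4.35 ± 0.07 (SD, n = 3) in blastema and 4.999 ± 0.24 (SD, n = 4) in uninjured digit. The difference was -0.65 ± 0.13 (SE) on the log2 scale, 1.57-fold lower (95% interval -0.95 to -0.35, limma adjusted p = 0.0225). It ranked 11 from the bottom of the 480 microRNA genes. Both means lay under 5.52, a background proxy: of 1105 olfactory receptor genes, 95% had a lower mean. Only 22.6% of all genes had a lower mean level. Signal this low is not clearly above background, so whether RNA of Mir140 was detected at all is uncertain. It also limits how well the size of the change is known. The call held in 1 of the 7 omissions of 1 array, that of uninjured digit 1 (adjusted p = 0.00682), and was lost in the others (0.0561 to 0.0895).

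Of the 10 chondrocyte markers, 5 rose, and Sox9 is itself 1 of these 5. Sox9, the transcription factor that drives Mir140 in chondrocytes, had log2 levels of 9.73, 9.14 and 9.49 in blastemas against 8.97, 8.46, 8.67 and 8.63 in uninjured digits. All blastemas were above all uninjured digits, with a log2 fold change of 0.77 ± 0.17 (SE, limma adjusted p = 0.0298). Sox9 passed in 2 of the 7 omissions of 1 array (0.0279 to 0.115 over the 7) and did not under reference gene scaling (0.0883). Of the cofactors, Sox5 differed by 0.09 (adjusted p = 0.634; -0.038 under reference gene scaling) and Sox6 by -0.26 (0.418). Wwp2, the ubiquitin ligase gene in which Mir140 lies, had 8.59, 8.12 and 8.05 in blastemas against 8.74, 8.43, 8.46 and 8.43 in uninjured digits, and the groups overlapped (-0.26 ± 0.15, adjusted p = 0.335). The change of Mir140 minus that of Wwp2 was -0.39 on the log2 scale. This difference had an exact permutation p of 0.229 (two-sided, 0.314 adjusted over the 2 pairs of a microRNA gene and its overlapping gene that could be tested, smallest possible p 0.0286). Among the genes ranked, the nearest profiles to that of Mir140 were those of Rpl3 (0.0461), Pik3c2g (0.0559) and Exosc7 (0.076). These genes encode a ribosomal protein, a lipid kinase and an RNA exosome subunit, in that order. They were picked for their likeness to Mir140 on these same arrays. That they fell too follows from this choice and is no separate result.

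Among the 5 genes, Mir205 had the widest spread within blastema. It had log2 levels of 9.15, 9.30 and 7.49 in blastemas 1 to 3, against 7.96, 7.97, 8.11 and 7.53 in uninjured digits 1 to 4. Blastemas 1 and 2 lay above every uninjured digit and blastema 3 lay below every one. The means were 8.65 ± 1.01 (SD, n = 3) in blastema and 7.89 ± 0.25 (SD, n = 4) in uninjured digit (log2 fold change 0.75 ± 0.42 SE, 95% interval -0.24 to 1.74, limma adjusted p = 0.325). Without blastema 3 the log2 fold change was 1.33 and passed (adjusted p = 0.0214), while blastema 3 alone was at -0.41 from the uninjured mean. The epidermal marker mean of blastema 3, 10.25, lay between those of blastemas 1 and 2 (10.16 and 10.38). Whether epidermal content bears on the spread of Mir205 was not tested. Trp63, which encodes p63 of basal epidermis, differed by 0.07 (adjusted p = 0.484; -0.053 under reference gene scaling), with 9.46, 9.49 and 9.37 in blastemas and 9.36 to 9.37 in uninjured digits.

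Mir203 was near the low end of the array, with group means under the background proxy. It had 4.49, 4.49 and 4.48 in blastemas against 4.98, 4.49, 4.32 and 4.62 in uninjured digits. All blastemas lay within the range of the uninjured digits (log2 fold change -0.12 ± 0.15 SE, 95% interval -0.46 to 0.22, limma adjusted p = 0.666). Its direction was set by uninjured digit 1, without which the log2 fold change was 0.0074. The levels of blastemas 1 and 2 and of uninjured digit 2 were identical to the last deposited digit. Such ties between at least 2 arrays occurred in 52.9% of all genes.

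Mir199a-1 had 5.72, 5.80 and 5.43 in blastemas against 5.61, 5.25, 5.37 and 5.28 in uninjured digits. Blastemas 1 and 2 were above all uninjured digits, and blastema 3 was below uninjured digit 1. The log2 fold change was 0.28 ± 0.12 (SE), with a 95% interval of -0.0067 to 0.56 and a limma adjusted p of 0.211. Dnm2, a dynamin gene whose span holds Mir199a-1, differed by 0.08 (adjusted p = 0.507; -0.042 under reference gene scaling). The difference between the changes of these genes, 0.19, had an exact permutation p of 0.314.

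**Figure D1:**
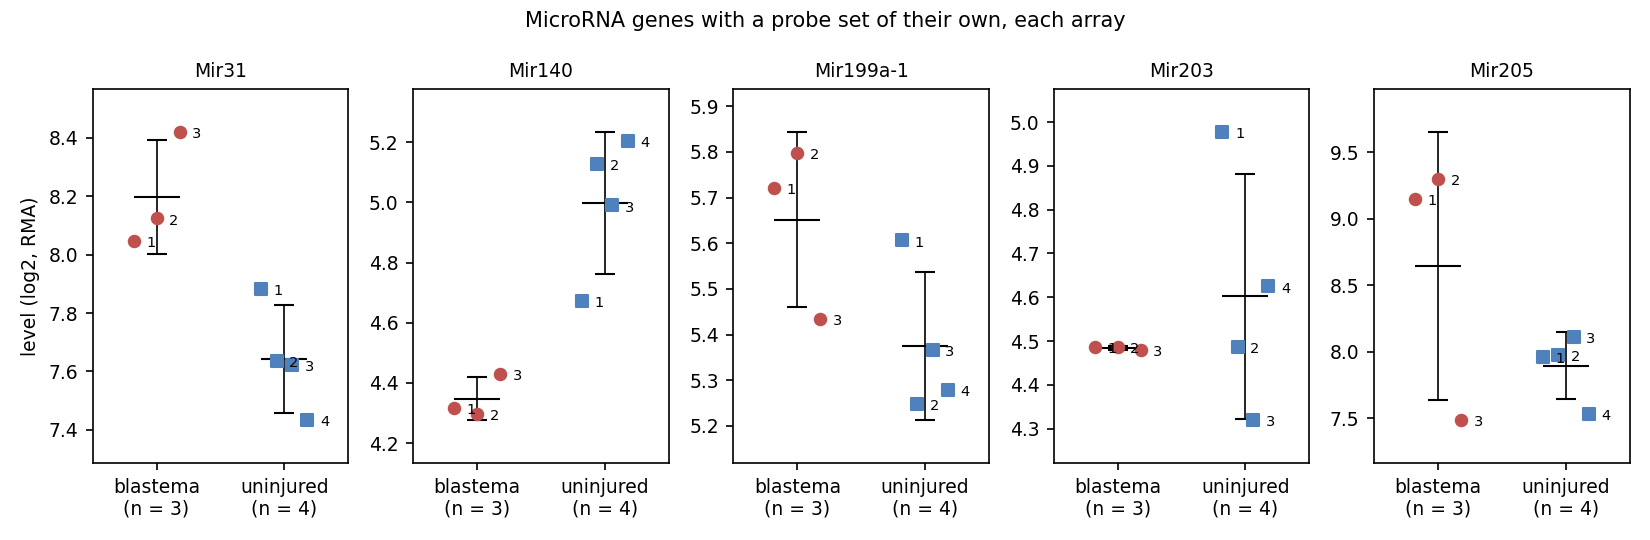
Log2 RMA levels (vertical axes, each on its own scale that does not start at 0) of the 5 separately measured microRNA genes in blastemas (red circles, n = 3) and uninjured digits (blue squares, n = 4), with array numbers beside the points and bars for the mean and SD. The groups part for Mir31 (higher in blastema) and Mir140 (lower), and for Mir205 blastema 3 (7.49) lies far under blastemas 1 and 2 (9.15 and 9.30).

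The members without a probe set of their own were read only jointly with other genes. All 3 joint probe sets had every blastema above every uninjured digit. Among all genes tested this held for 10.4%, and the share over all probe sets was not determined. Of the 3, 2 passed limma over all 41345 probe sets, of which 6.67% were called, 2.75% higher and 3.92% lower. No value of these probe sets can be assigned to a single gene they list.

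The probe set that lists Dnm3os with Mir199a-2 and Mir214 had 6.77, 6.69 and 7.29 in blastemas against 6.13, 6.24, 5.77 and 5.88 in uninjured digits. Blastema 3 was the highest and uninjured digit 3 the lowest. The means were 6.92 ± 0.32 (SD, n = 3) in blastema and 6.00 ± 0.22 (SD, n = 4) in uninjured digit, a log2 fold change of 0.92 ± 0.18 (SE, 95% interval 0.49 to 1.34, limma adjusted p = 0.0319 over all probe sets). The call was lost in each of the 7 omissions of 1 array (adjusted p = 0.0565 to 0.0831), with log2 fold changes of 0.73 to 1.03, and under reference gene scaling (0.0602). Twist1, the mesenchymal transcription factor known to drive Dnm3os, rose too. It had 6.97, 6.97 and 7.21 in blastemas against 6.53, 6.53, 5.99 and 6.29 in uninjured digits (log2 fold change 0.72 ± 0.15 SE, adjusted p = 0.0258 over all genes), and passed in 3 of the 7 omissions (0.0341 to 0.109 over the 7) but not under reference gene scaling (0.0817). Dnm3, the dynamin gene on the opposite strand of this locus, differed by 0.05 (95% interval -0.10 to 0.20, adjusted p = 0.659; -0.072 under reference gene scaling). Fibroblast marker means, given above, moved in the same direction as the joint probe set, and Twist1 is itself 1 of those 10 markers.

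The probe set that lists Mir22hg, Mir22 and Tlcd2 had 8.85, 8.41 and 9.18 in blastemas against 8.23, 7.98, 7.93 and 7.82 in uninjured digits. The closest values were those of blastema 2 and uninjured digit 1. The log2 fold change was 0.82 ± 0.19 (SE, 95% interval 0.38 to 1.27), with a limma adjusted p of 0.04998 over all probe sets, at the edge of the threshold. It passed in 1 of the 7 omissions of 1 array, that of blastema 2 (0.0379), and not in the others (0.0625 to 0.127), nor under reference gene scaling (0.12).

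The probe set that lists Vmp1, an autophagy gene, with Mir21a, a microRNA gene of wounds and fibrosis, had 7.48, 7.37 and 7.63 in blastemas against 7.10, 7.32, 7.29 and 7.32 in uninjured digits. The gap between blastema 2 and the nearest uninjured digits was small. The log2 fold change of 0.23 ± 0.09 (SE) did not pass (95% interval 0.01 to 0.46, adjusted p = 0.206). Vmp1 on a probe set of its own gave 0.23 ± 0.12 with overlapping groups (adjusted p = 0.274 over all genes). Stat3, a transcription factor that acts on Mir21a, rose, with 8.997, 9.20 and 9.33 in blastemas against 8.26, 8.61, 8.60 and 8.69 in uninjured digits (0.63 ± 0.12, adjusted p = 0.0224). Stat3 passed in 3 of the 7 omissions (0.025 to 0.0936 over the 7).

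**Figure D2:**
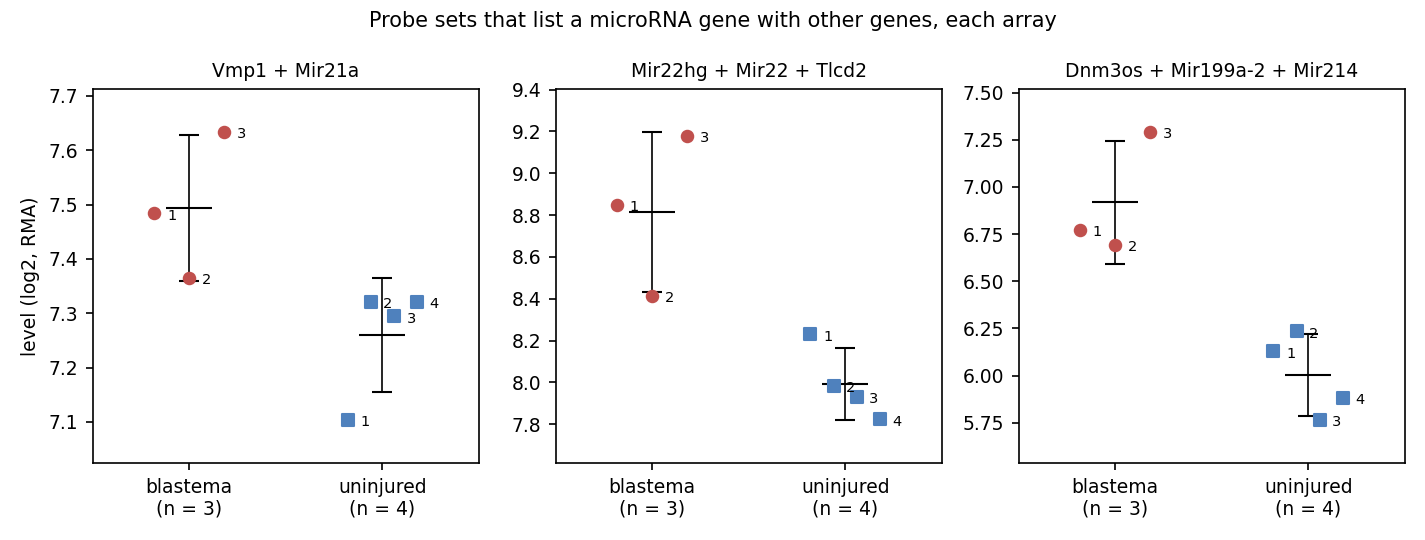
Log2 RMA levels (vertical axes, each on its own scale that does not start at 0) of the 3 probe sets that list a microRNA gene together with other genes, in blastemas (red circles, n = 3) and uninjured digits (blue squares, n = 4), with array numbers and bars for the mean and SD. Every blastema lies above every uninjured digit on each, by the most for the Dnm3os probe set and by the least for the Vmp1 probe set.

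Among 10 measured transcription factors known to act on genes of the set, 3 rose (Twist1, Sox9 and Stat3), 0 fell and 7 did not pass. Of all genes 9.64% were called, 4.98% higher and 4.66% lower. The median log2 fold change of the list was 0.13. The AP-1 genes Jun (0.15, limma adjusted p = 0.412), Junb (-0.16, 0.326) and Fos (0.31, 0.484) did not pass. An unadjusted p under 0.05 was reached by 3 of the 10 (30%), beside 24.9% of all genes. With only genes above the background proxy tested, 3 of 9 regulators rose and 0 fell, beside 20.6% of all 13316 genes called. None of the 4 measured host or overlapping genes, Vmp1, Wwp2, Dnm2 and Dnm3, passed limma, also at an unadjusted p under 0.05.

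Most of the machinery that makes and uses microRNAs did not pass. Of 18 measured genes 1 fell, 0 rose and 17 did not pass, with a median log2 fold change of -0.11. The share called was 5.56%, beside 9.64% of all genes, and 1 call among 18 genes is too few to set apart from that share. The 5 of 18 with an unadjusted limma p under 0.05 (27.8%) stand beside 24.9% of all genes. Of the 18 genes, 17 lay above the background proxy. With only genes above it tested, 2 of the 17 fell and 0 rose, beside 20.6% of all 13316 genes called. Xpo5, the export receptor of microRNA hairpins, was the gene that fell. It had 7.81, 7.92 and 7.78 in blastemas against 8.19, 8.29, 8.07 and 8.22 in uninjured digits, with no overlap (log2 fold change -0.35 ± 0.07 SE, adjusted p = 0.0255). Xpo5 passed in 2 of the 7 omissions of 1 array (0.0324 to 0.0996 over the 7). Under reference gene scaling Xpo5 did not pass (0.0611) and Prkra did (-0.52, 0.0326). The other members with an unadjusted p under 0.05 were Prkra, a Dicer partner (-0.39, adjusted p = 0.0797), the Argonaute gene Ago1 (-0.25, 0.109) and the silencing scaffold genes Tnrc6a (0.25, 0.103) and Tnrc6c (0.20, 0.174). The nucleases Drosha (0.09, adjusted p = 0.414; -0.037 under reference gene scaling) and Dicer1 (-0.20, 0.224) did not pass.

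**Figure D3:**
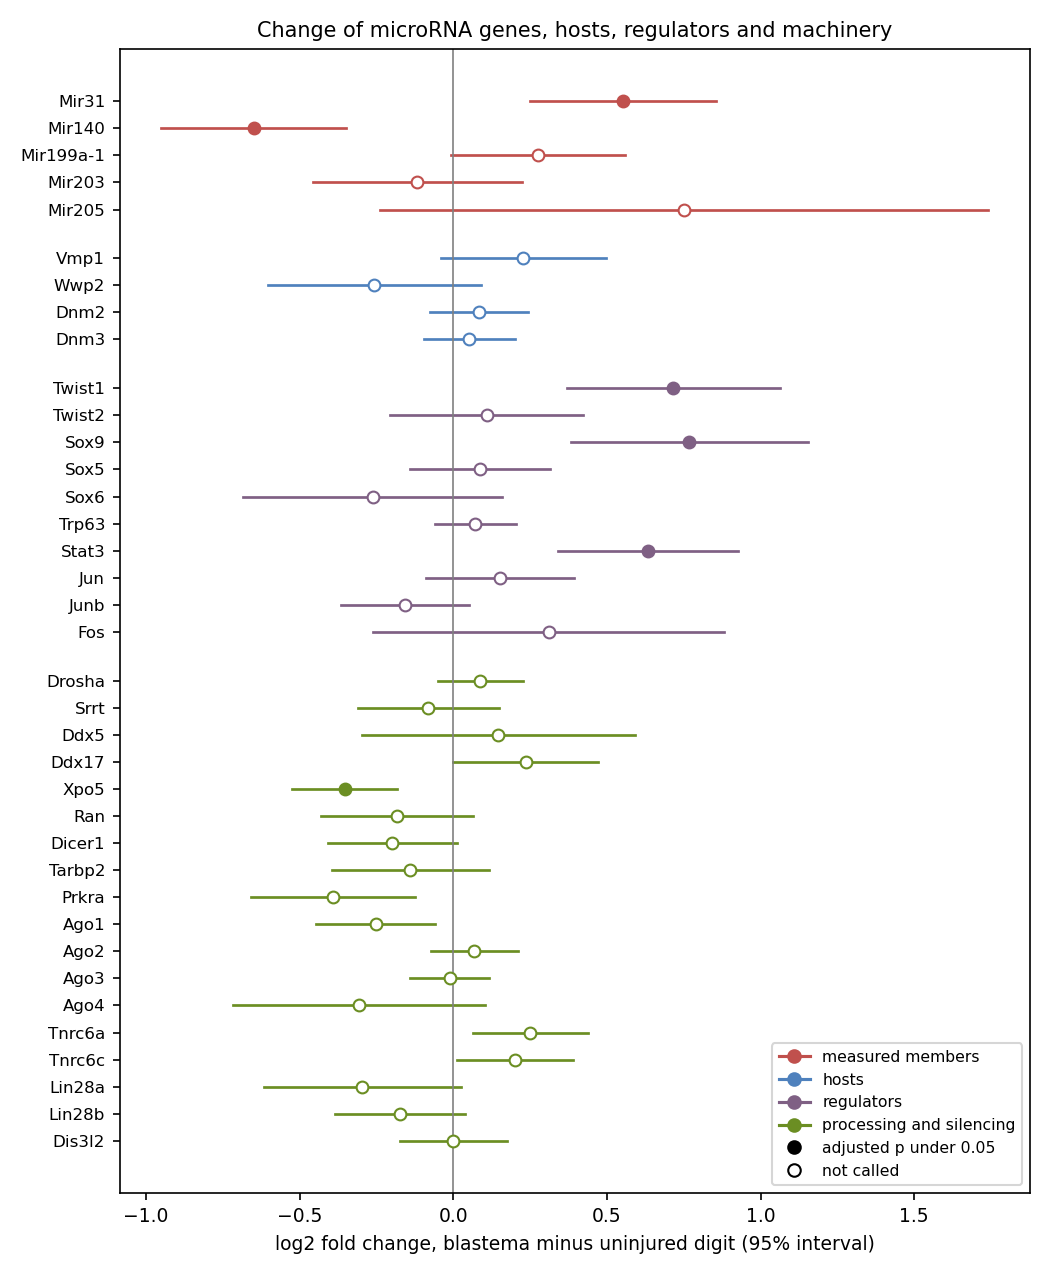
Log2 fold change, blastema minus uninjured digit (horizontal axis, with 95% intervals from limma), of the 5 separately measured microRNA genes, 4 host or overlapping genes, 10 regulators and 18 genes of processing and silencing. Filled points had an adjusted p under 0.05: Mir31, Twist1, Sox9 and Stat3 to the right of 0, Mir140 and Xpo5 to its left.

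The 5 genes were set beside all 480 microRNA genes with a probe set of their own. Of these 8 were higher in blastema, 8 lower and 464 not called (3.33% called, against 9.78% of the other 21700 genes), with a median log2 fold change of -0.02. Only 28.5% of the microRNA genes had a mean above the background proxy in 1 group or both, against 60.7% of the others. With only genes above the proxy tested, 11.7% of 137 microRNA genes were called, against 20.6% of all 13316 genes. Mir31 and Mir140 were thus 2 of the 16 called microRNA genes, and Mir31 was among those above the proxy.

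Among the called microRNA genes, the largest rise was that of Mir3095, with 6.53, 6.99 and 7.29 in blastemas against 5.62, 5.64, 5.26 and 5.22 in uninjured digits (log2 fold change 1.502, limma adjusted p = 0.00546). Its mean was 6.94 in blastema and, under the proxy, 5.44 in uninjured digit. It lies inside the lysophosphatidic acid receptor gene Lpar1, which differed by 0.41 (0.101). Mir145a, a microRNA gene of smooth muscle, followed (1.08, adjusted p = 0.0404), at means under the proxy. Mir2137 rose by 0.77 (0.0401), while Zfp185, the gene it lies in, fell (-0.50, 0.0182). The largest falls were those of Mir1983, which overlaps a transfer RNA gene (-1.25, adjusted p = 0.00778), Mir1932, inside Rnf213 (-1.14, 0.0413), and Mir140. The mean of Mir1983 was 4.38 in blastema, under the proxy, and 5.63 in uninjured digit, just above it. Mir3095 and Mir1983 passed in all 7 omissions of 1 array, Mir145a in 2, and Mir2137 and Mir1932 in 1 each. Mir2137 did not pass under reference gene scaling (0.104).

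Further microRNA genes with known roles in these tissues were read as lists, beside the 3.33% of all 480 microRNA genes called. Of 10 other skin microRNA genes measured 0 passed limma, with 3 at an unadjusted p under 0.05 (30%, beside 21.7% of all 480 microRNA genes) and a median log2 fold change of -0.03. The lowest p was that of Mir125b-1, known from hair follicle stem cells (1.39 ± 0.39 SE, adjusted p = 0.0749, and 0.0226 under reference gene scaling). Both its means, 4.39 in blastema and 3.01 in uninjured digit, lay under the proxy, and without blastema 2 (5.41, against 3.74 and 4.04 in blastemas 1 and 3) the log2 fold change was 0.88. Of 18 other bone and cartilage microRNA genes 0 passed, with 3 at an unadjusted p under 0.05 (16.7%) and a median of -0.20, and Mir218-1 had the lowest p (-0.61 ± 0.18, adjusted p = 0.0859, and 0.0261 under reference gene scaling). Of 11 genes of vessels, blood cells and muscle, Mir145a rose and Mir144, an erythroid microRNA gene, fell (-0.51 ± 0.09, adjusted p = 0.0165) at levels under the proxy, and Mir144 passed in 4 of the 7 omissions. The called share of the vessel, blood cell and muscle list was 18.2%. The medians stand beside -0.02 for all microRNA genes.

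**Figure D4:**
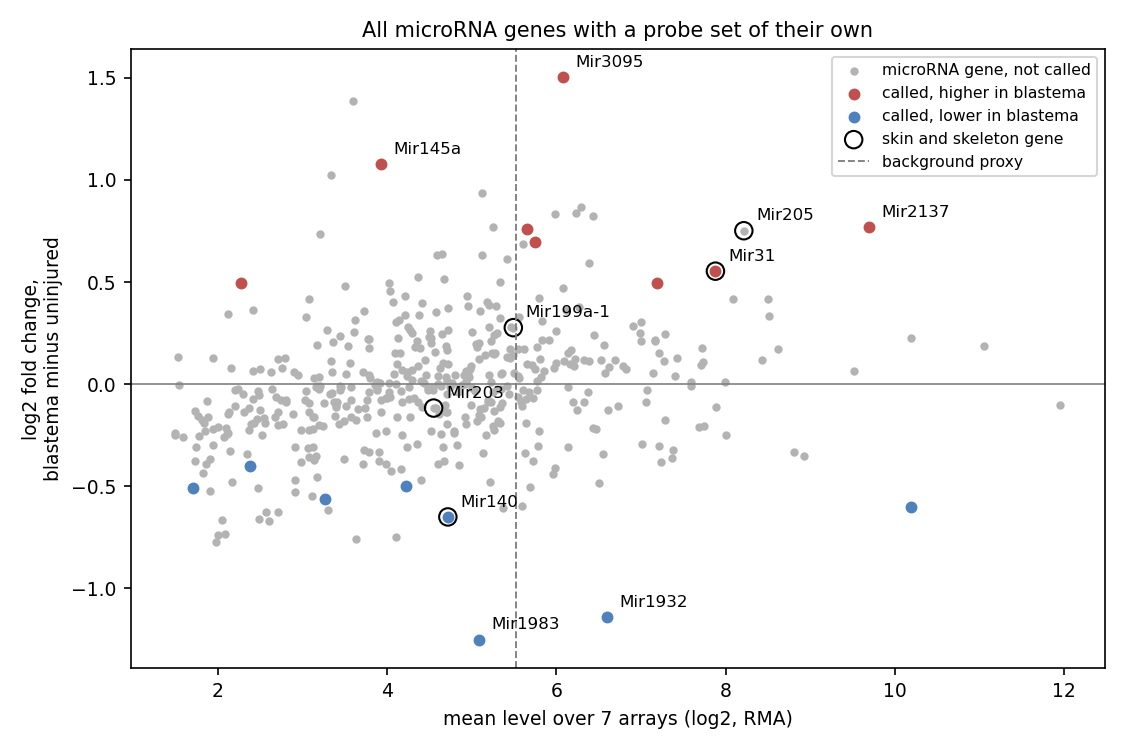
Log2 fold change, blastema minus uninjured digit (vertical axis), against the mean log2 level over the 7 arrays (horizontal axis) for 480 microRNA genes. Red points (8) were called higher and blue points (8) lower in blastema, open black circles mark the 5 skin and skeleton genes, and the dashed line marks the background proxy of 5.52, left of which Mir140 and Mir203 lie well clear of it and Mir199a-1 only just (5.49).

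Genes described elsewhere, in human or rodent cells, as targets of these microRNAs were read as short lists. Of 46 distinct targets measured 3 rose, 3 fell and 40 did not pass, with a median log2 fold change of 0.13. The share called, 13%, is close to the 9.64% of all genes. An unadjusted p under 0.05 was reached by 20 of the 46 (43.5%), beside 24.9% of all genes. These shares are not alike in level: 97.8% of the targets lay above the background proxy in 1 group or both, against 60% of all genes. With only genes above the proxy tested, 8 of 45 targets rose and 4 fell, beside 20.6% of all 13316 genes called. The unadjusted share among genes above the proxy was not determined. For miR-140, with the targets of both strands in 1 list, 1 of 7 rose and 1 fell (median 0.26). Of these 7, 4 had an unadjusted p under 0.05. Hdac4, a histone deacetylase of chondrocyte maturation, had 8.20, 8.13 and 8.19 in blastemas against 7.54, 7.64, 7.49 and 7.58 in uninjured digits. Its groups lay far apart relative to their spread (log2 fold change 0.61 ± 0.06 SE, limma adjusted p = 0.00273), and it passed in all 7 omissions of 1 array, though not under reference gene scaling (0.0519). Sp1, a general transcription factor, fell (-0.24 ± 0.06, adjusted p = 0.0492), and lost its call in each omission (0.0655 to 0.152) and under reference gene scaling (0.161).

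For miR-203, 1 of 7 rose and 1 fell (median 0.21), and 5 had an unadjusted p under 0.05. Snai2, a transcription factor of mesenchymal and migrating epidermal cells, had 11.27, 11.44 and 11.07 in blastemas against 10.44, 9.79, 10.04 and 9.82 in uninjured digits (log2 fold change 1.24 ± 0.17 SE, limma adjusted p = 0.0068). All blastemas were above all uninjured digits, and the call held in all 7 omissions of 1 array. Vav3 fell (-0.60 ± 0.14, adjusted p = 0.0391) and passed in 1 of the 7 omissions. For miR-31, 0 of 7 passed and 2 had an unadjusted p under 0.05, with the lowest p for Hif1an, which restrains hypoxia factors (-0.40 ± 0.11, adjusted p = 0.0657). For miR-205, 0 of 5 passed and 2 had an unadjusted p under 0.05, with the lowest p for Zeb1, a repressor of epithelial genes (0.72 ± 0.21, adjusted p = 0.0784).

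The targets of microRNAs on joint probe sets gave 3 calls. For miR-21a, Tpm1, a tropomyosin gene, rose (0.73 ± 0.11 SE, limma adjusted p = 0.00852) and Btg2, an antiproliferative gene, fell (-0.41 ± 0.10, 0.0446), and 6 of 8 did not pass (median -0.07). Of these 8, 4 had an unadjusted p under 0.05. Tpm1 passed in all 7 omissions of 1 array and Btg2 in 1, and Btg2 did not pass under reference gene scaling (0.0549). Of 9 targets of miR-199a or miR-214, 0 passed and 2 had an unadjusted p under 0.05 (median 0.11), with the lowest p for the hypoxia factor gene Hif1a (0.25 ± 0.07, adjusted p = 0.0719). With its 2 probe sets averaged, Hif1a differed by 0.09 (0.542), and under reference gene scaling by 0.13 (0.59). Hdac4, also named for miR-22, was the only 1 of 5 in that list to pass (median -0.02), and 2 of the 5 had an unadjusted p under 0.05. Messenger RNA levels alone do not show regulation by a microRNA, and binding sites were not analysed here.

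**Figure D5:**
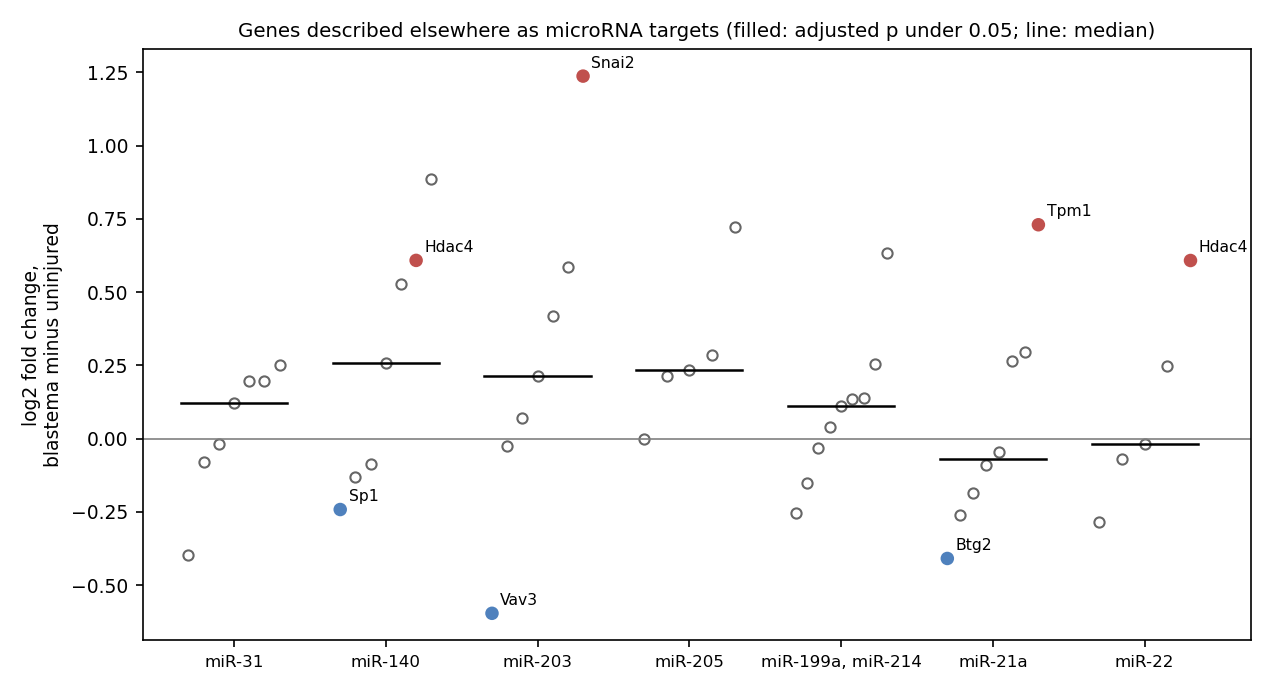
Log2 fold change, blastema minus uninjured digit (vertical axis), of genes described elsewhere as targets of each microRNA (horizontal axis), with a line at the list median. Filled points had an adjusted p under 0.05, in red where higher in blastema (Hdac4, Snai2, Tpm1) and in blue where lower (Sp1, Vav3, Btg2), and every list holds more open than filled points.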

How the data were processed

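The deposited values are log2 levels made by the authors with RMA in the R package oligo, per the submitters' processing notes, from 1-colour arrays. The sources used here name no version, setting or array build. Medians of the arrays ran from 5.53 to 5.58 over 41345 probe sets, and their number, 7, limits the precision. By the platform annotation 23521 probe sets carry a single symbol, 1814 carry several and 16010 carry no symbol. Those with a single symbol gave 22180 genes, 1082 of them with over 1 probe set, and 21994 were matched to RefSeq by Entrez identifier.

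Groups were compared with limma 3.58.1 under R 4.3.3 (lmFit, then eBayes; two-sided, without covariate or filter), which was tested on simulated data. Its p-values were adjusted over all genes, or over all 41345 probe sets for the joint signals. Intervals are 95% limma intervals. Figures used Python 3.11.15 and matplotlib 3.10.9. Members, lists and alternatives were chosen with earlier results of these data known, and the fits over all probe sets and the value of Mir205 in blastema 3 alone were added after the values were seen. Alternatives were the replicate number as a block, level filters, other probe set summaries, an intensity trend, array weights, other scalings and the omission of arrays. Genes were named by rule: all members, any measured host, regulator or processing gene, the 2 called genes with the largest change (or that with the lowest p) per target or microRNA list, the 3 highest and 3 lowest called microRNA genes, and the 3 nearest profiles of each called member.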

Additional observations from a re-analysis of the deposited data

Results flagged for a closer look

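On the probe set that lists Vmp1 with Mir21a, uninjured digit 1 (log2 level 7.10) lay far below the other uninjured digits (7.29 to 7.32) relative to the range of that group. By chance, a sample stands out this far in about 1 of 20 such groups, and more often somewhere among several groups. The check covered the uninjured digits for the 5 separately measured genes and for each joint probe set, and flagged only this group. Without uninjured digit 1 the probe set's log2 fold change did not pass either, as in each of the 7 omissions of 1 array (limma adjusted p = 0.201 to 0.452).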

How the results depend on the processing

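Over the 7 omissions of 1 array, the genes called higher numbered 457 to 1286 and lower 365 to 1009. Omissions left 0 to 1 members higher and 0 to 1 lower, 0 to 3 regulators higher, 0 to 1 processing genes lower, 2 to 9 microRNA genes higher and 2 to 12 lower, and 3 to 7 targets higher and 0 to 1 lower. Their log2 fold changes were 0.44 to 0.63 for Mir31, -0.76 to -0.58 for Mir140, 0.20 to 0.38 for Mir199a-1, -0.21 to 0.0074 for Mir203 and 0.42 to 1.33 for Mir205. The difference between Mir140 and Wwp2 was -0.58 to -0.21, and that between Mir199a-1 and Dnm2 0.09 to 0.31.

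Deviations from the group means correlated across genes at r = 0.286, 0.151 and -0.0651 for same-numbered arrays 1, 2 and 3. Arrays of unlike number gave r of -0.223 to 0.140. So few pairs cannot settle whether the numbers pair the samples. With the replicate number as a block, 295 genes were higher and 304 lower, with 0 members in either direction (Mir31 0.48, adjusted p = 0.14, and Mir140 -0.58, 0.0738), 0 processing genes lower, 2 microRNA genes higher and 3 lower, and 1 target higher and 0 lower. Both joint probe sets also missed the threshold (adjusted p = 0.14 for Mir22hg and 0.166 for Dnm3os). Scaling to 5 reference genes moved the median log2 fold change by -0.124. It gave 606 genes higher and 1180 lower (33.9% of calls higher, in place of 51.7%), 0 members higher (Mir31 0.43, adjusted p = 0.192), 1 regulator higher, 5 microRNA genes higher and 17 lower, and 1 target lower. Dnm2 (-0.042), Dnm3 (-0.072), Drosha (-0.037), Sox5 (-0.038) and Trp63 (-0.053) changed sign, and the joint probe sets did not pass (0.12 and 0.0602). Scaling to array medians gave 43.7% of calls higher and 14 microRNA genes lower.

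The 30th percentile filter and the background proxy removed Mir140 and Mir203, which left 0 members lower, with 3 and 5 microRNA genes lower and 6 and 8 targets higher. The proxy gave 2 processing genes lower. Array weights gave 19 microRNA genes higher and 15 lower, 8 targets higher and 1 processing gene higher, and the Mir22hg probe set missed the threshold (0.0542). Without both arrays numbered 1, 17 microRNA genes and 1 host (Wwp2, -0.35, adjusted p = 0.0263) were lower, 0 processing genes and 0 targets were lower, 5 targets were higher, Mir203 was at 0.0062, and the joint probe sets did not pass (0.139 and 0.101). The cause of these shifts was not tested. Neither the mean of all probe sets nor the intensity trend changed a call of a member.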
